A study of Homo sapiens with 5 samples.

Results

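In all, 8 genes of the caspase machinery were followed here: FAS, TNFRSF10A, TNFRSF10B, CASP8, CFLAR, APAF1, CASP9 and XIAP. They were chosen by symbol, as the rows of the deposited count table whose Ensembl identifiers carry these names in the gene annotation, and all 8 of 8 were found among 30476 genes. The rule itself used symbols and no measured value. The libraries came from TOV21G, a cell line of ovarian clear cell carcinoma in which ARID1A is mutated, a subunit of the SWI/SNF chromatin remodeler, so every group shared this background. GSK126 inhibits EZH2, the methyltransferase of the polycomb repressive complex PRC2. There was 1 library of the parental line without resistance, and 4 libraries of EZH2 inhibitor-resistant (EIR) cells: clone 3 and clone 4, each as untreated resistant cells and as GSK126-treated resistant cells. The clones had been selected with GSK126 raised from 5 to 20 uM, and the dose and length of the treatment in the treated RNA-seq libraries were not given in the labels. Both libraries of a clone came from the same line, so 4 EIR libraries stand for 2 clones, and nothing in the labels says whether separate cultures lie behind them. The p-values therefore measure the spread between these libraries, which may be technical.

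Caspases are proteases that carry out apoptosis, and they are started along 2 routes. In the extrinsic route, the death receptors FAS, TNFRSF10A (DR4) and TNFRSF10B (DR5) bind a ligand at the cell surface, recruit the adaptor FADD and activate the initiator caspase CASP8, and CFLAR (c-FLIP) competes with CASP8 in that complex. In the intrinsic route, cytochrome c released from mitochondria binds APAF1, which assembles the apoptosome and activates the initiator caspase CASP9. XIAP binds and inhibits CASP9 and executioner caspases. In solid tumors these genes are known as points at which cells can become less ready to die.

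The libraries held between 25479238 and 30764963 estimated counts each. The 8 genes had between 171 and 7292 counts per library, so none was lost to a filter on low counts, and 8 of 8 were tested in every comparison. As a check of the labelled cell type, the matched markers of clear cell carcinoma epithelium (6 of 7) summed to between 22326 and 28129 counts, carried mostly by PAX8, KRT8 and KRT18. EPCAM, however, had 0 and 1 counts in the 2 clone 4 libraries and 398 to 498 in the other 3, and CDH1 had 2 to 6 counts outside clone 3. Markers of leukocytes (4 of 5 matched) summed to 23 to 38 counts, those of endothelial cells (3 of 4) to 9 to 20 and those of fibroblasts (5 of 5) to 53 to 139. These are cell populations in bulk, in which fewer cells expressing a gene and less RNA per cell cannot be told apart.

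The promoter sequences of the genes that passed a test below, where they could be shown, give the context of their transcription starts. Polycomb repression is known to favor promoters rich in CG dinucleotides. The 250 bases before the annotated start with the most CG are printed for 4 of the genes, 5' to 3' on the gene's strand, from RefSeq on GRCh38.p14, with each CG in capitals. CFLAR lies at chr2:201140025-201140274 on the plus strand (1 of 4 annotated starts), APAF1 at chr12:98645040-98645289 on the plus strand (its 1 start), CASP9 at chr1:15524216-15524465 on the minus strand (1 of 2) and FAS at chr10:88991181-88991430 on the plus strand (1 of 3).
CFLAR: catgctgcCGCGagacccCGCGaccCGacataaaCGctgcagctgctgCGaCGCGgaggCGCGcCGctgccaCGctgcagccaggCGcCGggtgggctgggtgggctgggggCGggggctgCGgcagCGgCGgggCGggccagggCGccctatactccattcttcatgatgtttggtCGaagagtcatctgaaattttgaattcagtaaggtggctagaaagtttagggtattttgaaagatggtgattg
APAF1: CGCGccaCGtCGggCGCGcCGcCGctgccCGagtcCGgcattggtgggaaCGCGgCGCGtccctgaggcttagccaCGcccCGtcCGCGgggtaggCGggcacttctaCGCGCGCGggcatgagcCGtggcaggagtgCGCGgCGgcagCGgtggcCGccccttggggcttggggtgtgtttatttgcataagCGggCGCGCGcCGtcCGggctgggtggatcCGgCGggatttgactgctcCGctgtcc
CASP9: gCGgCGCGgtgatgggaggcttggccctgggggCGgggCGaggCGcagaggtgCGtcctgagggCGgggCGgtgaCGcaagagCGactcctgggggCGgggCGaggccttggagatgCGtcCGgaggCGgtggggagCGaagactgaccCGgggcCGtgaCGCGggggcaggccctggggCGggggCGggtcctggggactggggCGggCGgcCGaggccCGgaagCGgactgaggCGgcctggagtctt
FAS: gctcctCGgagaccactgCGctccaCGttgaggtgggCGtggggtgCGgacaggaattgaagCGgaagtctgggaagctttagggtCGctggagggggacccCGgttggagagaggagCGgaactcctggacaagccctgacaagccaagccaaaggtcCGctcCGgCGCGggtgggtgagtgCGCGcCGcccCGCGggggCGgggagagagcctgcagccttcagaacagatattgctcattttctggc
The APAF1 window held 38 CG, a number reached by 3.28% of 35116 windows of this length. CASP9 held 29 (14.1% of windows held as many), CFLAR 22 (28.0%) and FAS 19 (34.7%), against a median of 11. Both CASP9 starts were CG-rich, with 25 in the other window, whereas 2 of the 4 CFLAR windows held no CG. The other FAS windows held 14 and 11. Each printed window was the richest of its gene's starts, while the background counted every window singly. The shares therefore make genes with several starts look richer in CG. The GC box GGGCGG was read on both strands, with its CG counted above and overlapping matches left out. So counted, it occurred 6 times in the CASP9 window, which also holds overlapping matches. It occurred 2 times each in CFLAR and FAS and 1 time in APAF1, and at least once in 42.6% of all windows. These counts describe the letters only, since no binding or methylation data were used here.

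The first comparison asked how the 8 genes stood in EIR cells relative to the parental line. CFLAR, the inhibitor of CASP8, was higher in EIR cells, and APAF1, the apoptosome scaffold, was lower. CASP9 was the gene farthest from parental, with a mean 2.71-fold below it, yet it did not pass the threshold. FAS and XIAP lay near the parental level on average. The plot of normalized read counts by library shows the levels.

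**Figure D1:**
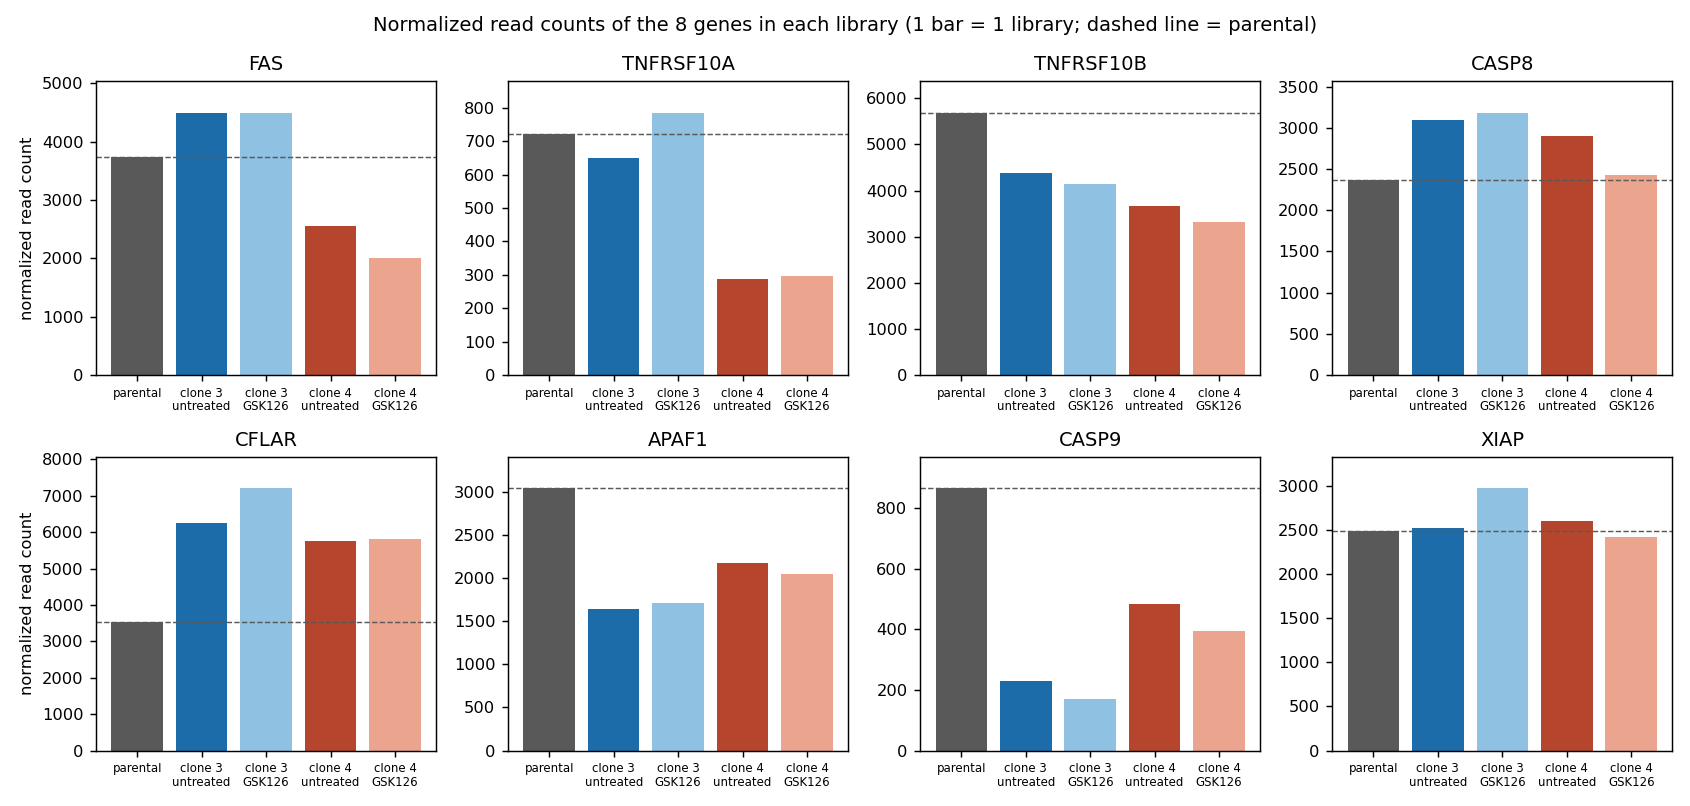
Normalized read count (y axis, linear from 0, with its own scale for each gene) in the 5 libraries (x axis). Each bar is 1 library and the dashed line is the parental level: all 4 EIR bars of CFLAR stand above it and all 4 of APAF1, CASP9 and TNFRSF10B below it, while FAS and TNFRSF10A separate clone 3 from clone 4.

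The extrinsic route had its clearest change at the inhibitor. CFLAR (ENSG00000003402) measured 3540 normalized read counts in the parental library, 6250.0 in untreated and 7206 in treated clone 3, and 5763 in untreated and 5809 in treated clone 4. All 4 EIR libraries were above parental, with a mean of 6257 ± 669.9 (SD, n = 4), 1.77-fold the parental level. In DESeq2, CFLAR rose by a log2 fold change of 0.82 ± 0.21 (SE; adjusted p = 6.71e-04).

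CASP8 (ENSG00000064012), the initiator caspase that CFLAR holds in check, measured 2372 in the parental library, 3092 in untreated and 3189 in treated clone 3, and 2899 in untreated and 2432 in treated clone 4. Every EIR library was above parental, though treated clone 4 exceeded it by only 0.04 on the log2 scale. The log2 fold change of 0.29 ± 0.22 (SE) did not pass in DESeq2 (adjusted p = 0.364), with an interval of -0.15 to 0.73. The ratio of CFLAR to CASP8 counts within a library, which no scaling affects, was 1.49 in the parental library (95% counting interval 1.42 to 1.57). It was 2.02 (1.94 to 2.11) in untreated clone 3 and 1.99 (1.9 to 2.08) in untreated clone 4. In the treated libraries it was 2.26 (2.17 to 2.36) in clone 3 and 2.39 (2.28 to 2.51) in clone 4. The ratio was thus higher in all 4 EIR libraries than in the parental one, and it remained so after a GC correction (1.38 in the parental library and 2.04 to 2.38 in EIR libraries). The ratio and its GC correction were examined after the values were known, its intervals cover counting error only, and without a length it does not say which of the 2 genes was more abundant.

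Among the receptors, TNFRSF10B (ENSG00000120889), a receptor for TRAIL, measured 5694 in the parental library, 4382 in untreated and 4147 in treated clone 3, and 3671 in untreated and 3309 in treated clone 4. All 4 EIR libraries were below parental, with a mean of 3877 ± 480.3 (SD, n = 4). Its log2 fold change was -0.55 ± 0.23 (SE; adjusted p in DESeq2 = 0.0543). It passed with a filter on low counts (0.0360) and did not with the GC correction (0.279).

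FAS (ENSG00000026103), the receptor of FAS ligand, measured 3742 in the parental library, 4496 in untreated and 4502 in treated clone 3, and 2547 in untreated and 2010.1 in treated clone 4. Clone 3 was above parental and clone 4 below it, so that the log2 fold change of -0.14 ± 0.48 (SE; adjusted p in DESeq2 = 0.867) averaged over opposite positions. TNFRSF10A (ENSG00000104689), the other TRAIL receptor with a death domain, measured 723 in the parental library, 649 in untreated and 787 in treated clone 3, and 287 in untreated and 296 in treated clone 4. Clone 3 was close to parental and clone 4 was far below, and the pooled log2 fold change was -0.52 ± 0.61 (SE; adjusted p in DESeq2 = 0.590).

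In the intrinsic route both partners of the apoptosome were below parental in every EIR library. APAF1 (ENSG00000120868) measured 3042 in the parental library, 1638 in untreated and 1717 in treated clone 3, and 2171 in untreated and 2044 in treated clone 4. The EIR mean of 1892 ± 255.8 (SD, n = 4) was 1.61-fold below parental, and APAF1 fell by 0.68 ± 0.24 (SE) on the log2 scale in DESeq2 (adjusted p = 0.0217). With the GC correction its log2 fold change was -0.95.

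CASP9 (ENSG00000132906) measured 866 in the parental library, 230 in untreated and 169 in treated clone 3, and 483 in untreated and 396 in treated clone 4. The highest EIR library was still well below parental, but the EIR libraries differed widely among themselves (mean 319 ± 145, SD, n = 4). The log2 fold change was -1.44 ± 0.58 (SE), with an interval of -2.58 to -0.30 and a DESeq2 adjusted p of 0.0523. It passed with TMM scaling in DESeq2 (0.0495) and was far from passing with the GC correction (0.205). The ratio of CASP9 to APAF1 counts was 0.285 in the parental library (95% counting interval 0.264 to 0.307). It was 0.140 and 0.0985 in untreated and treated clone 3, and 0.223 and 0.194 in untreated and treated clone 4. The order depended on GC content, which is 56.1% in CASP9 and 40.9% in APAF1. After the GC correction the ratio was 0.205 in the parental library, 0.145 and 0.108 in untreated and treated clone 3, and 0.260 and 0.202 in untreated and treated clone 4, so that the clone 4 libraries were no longer clearly below parental.

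XIAP (ENSG00000101966), the caspase inhibitor, measured 2490 in the parental library, 2527 in untreated and 2972 in treated clone 3, and 2599 in untreated and 2416 in treated clone 4. Of the 4 EIR libraries 3 were above parental and 1 below. The log2 fold change of 0.08 ± 0.19 (SE) did not pass (DESeq2 adjusted p = 0.815), and its interval ran from -0.30 to 0.46.

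Thus 2 of 8 genes (25%) passed in EIR cells against parental, 1 higher and 1 lower. Over all 16288 genes with an adjusted p, 25.5% passed, 12.4% higher and 13.2% lower, so the share among these genes was that of the table as a whole. Their median log2 fold change was -0.33, against 0.00 over all genes tested. With edgeR's quasi-likelihood test 0 of the 8 passed. It adjusted over all 30476 genes without a filter and called 5.73% of them, so that share has another base than the 25.5%. In edgeR CFLAR had an adjusted p of 0.0596 and APAF1 of 0.0803. There 4 of the 8 (CFLAR, APAF1, CASP9 and TNFRSF10B) had an unadjusted p under 0.05. The APAF1 call was also lost in DESeq2 with counts summed per clone (adjusted p = 0.152), with total count scaling (0.0527), without untreated clone 3 (0.0667) and without treated clone 3 (0.0818), and CASP9 passed without untreated clone 4 (0.0091).

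**Figure D2:**
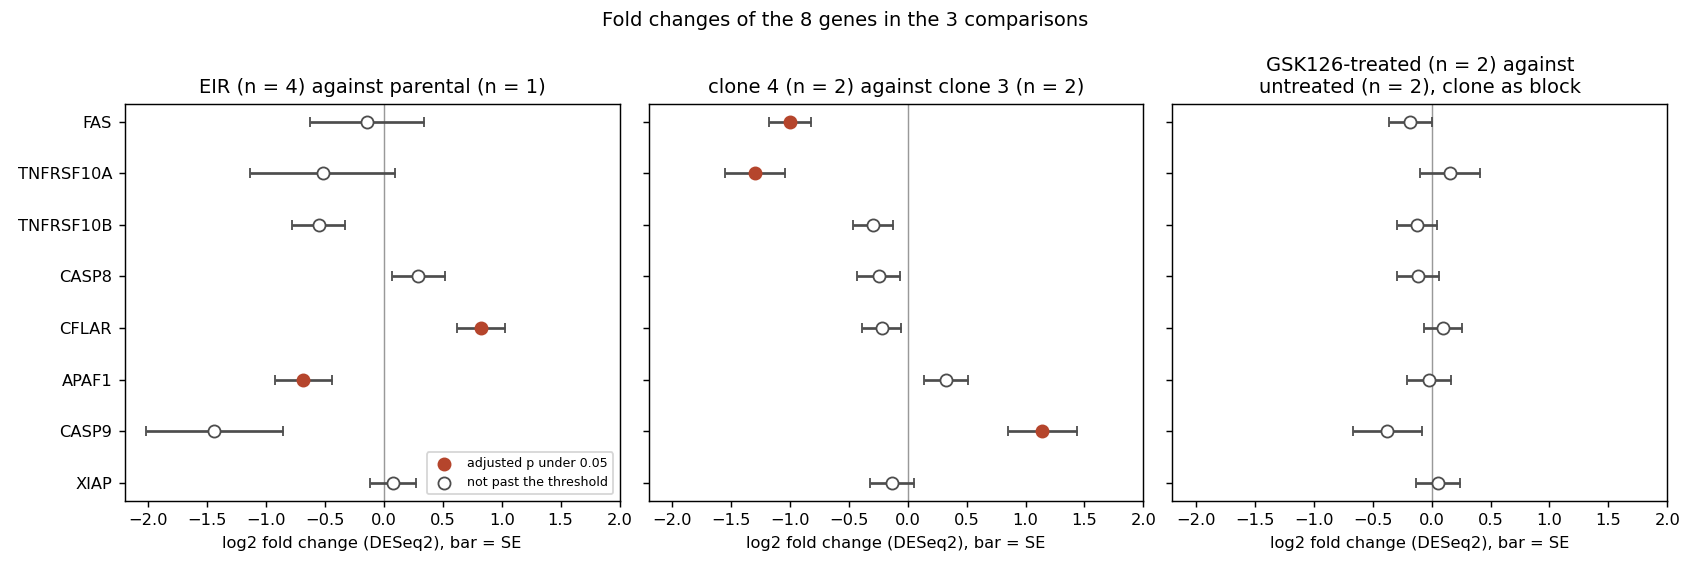
DESeq2 log2 fold change (x axis) of each gene (y axis) in EIR against parental, clone 4 against clone 3, and GSK126-treated against untreated EIR libraries with the clone as a block. Bars are the SE and filled points have an adjusted p under 0.05: CFLAR and APAF1 in the first panel, FAS, TNFRSF10A and CASP9 in the second, none in the third.

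The second comparison asked how far the clones differed from each other. The death receptors TNFRSF10A and FAS were lower in clone 4, and CASP9 was higher in clone 4. TNFRSF10A had a mean of 718 normalized read counts in clone 3 and 291.5 in clone 4, 2.46-fold apart, and its 2 clone 4 libraries lay well below both clone 3 libraries. It fell by 1.30 ± 0.26 (SE) on the log2 scale from clone 3 to clone 4 (DESeq2 adjusted p = 1.18e-05). FAS had a mean of 4499 in clone 3 and 2279 in clone 4 and fell by 1.00 ± 0.18 (SE) on that scale (DESeq2 adjusted p = 1.09e-06). CASP9 had a mean of 199 in clone 3 and 439 in clone 4, 2.21-fold higher, a log2 difference of 1.14 ± 0.30 (SE; adjusted p in DESeq2 = 0.0022).

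CASP8, the other initiator caspase, had a log2 fold change of -0.25 ± 0.18 (SE; adjusted p in DESeq2 = 0.559), and did not pass. The others lay between -0.30 for TNFRSF10B and 0.32 for APAF1 and did not pass, with intervals that reached from -0.63 for TNFRSF10B to 0.69 for APAF1.

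In all, 3 of 8 genes passed between the clones (1 higher and 2 lower in clone 4), against 9.81% of 17708 genes tested, 3.3% higher and 6.52% lower. Their median log2 fold change was -0.23, against 0.00 over all genes tested. The same 3 passed in edgeR, with adjusted p of 0.0025 for TNFRSF10A, 0.0083 for FAS and 0.0058 for CASP9. It called 6.26% of all 30476 genes, which it adjusted over without a filter. The CASP9 call was lost without treated clone 3 (adjusted p = 0.206, DESeq2), and CASP8 (0.0490) and TNFRSF10B (0.0404) passed without untreated clone 4. Each clone was 1 line, so a difference between these clones is not a difference between kinds of resistant cells.

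**Figure D3:**
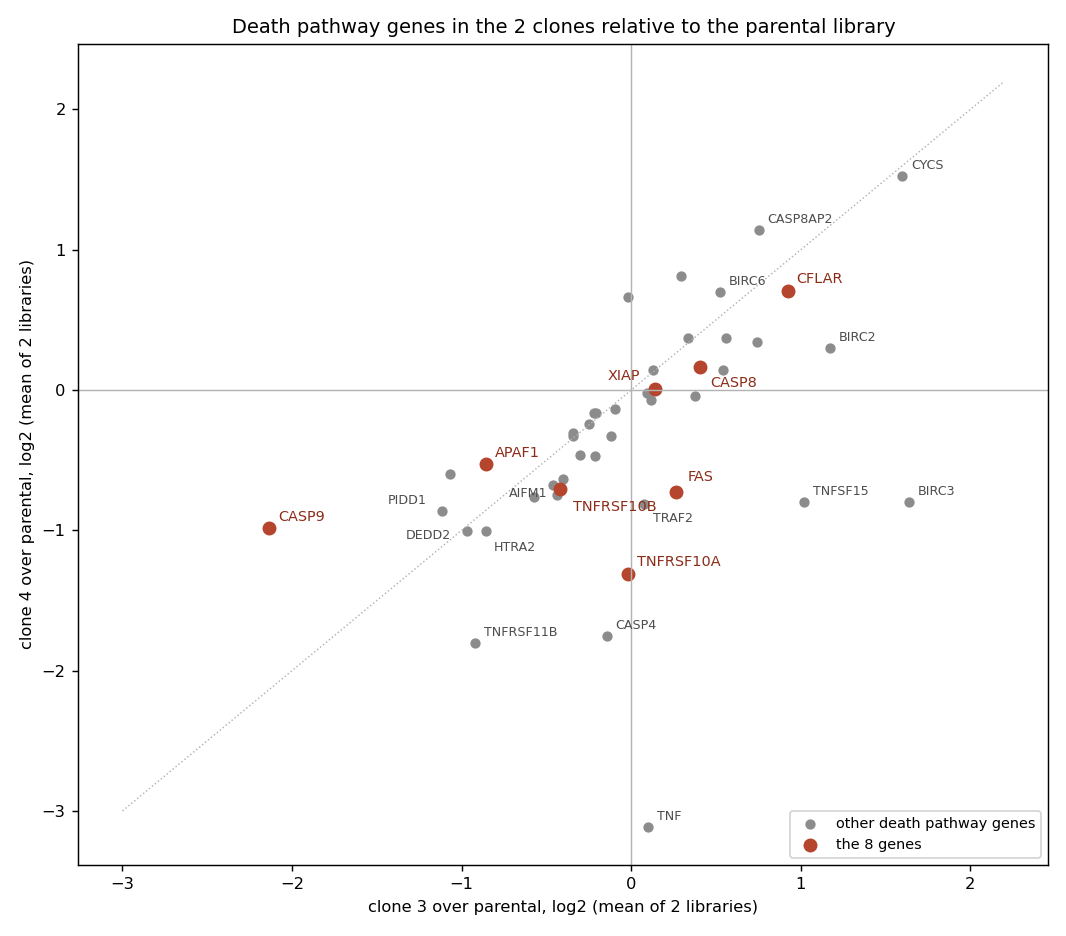
Log2 ratio to the parental library in clone 3 (x axis) and clone 4 (y axis), each the mean of 2 libraries, for the 8 genes and for other death pathway genes whose mean reached 100 normalized read counts. The dotted line marks equal values: CFLAR and APAF1 lie near it, CASP9 is farther below parental in clone 3, and FAS and TNFRSF10A are far below parental in clone 4 while clone 3 lies near or above it. Both axes share the 1 parental library.

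The third comparison asked whether GSK126 moved these genes within resistant cells. None of the 8 passed: DESeq2 gave an adjusted p of 0.9999 for each, 0 of the 8 had an unadjusted p under 0.05, and the background was 0.00335% of 29847 genes. With the clone as a replicate block the background was 0.0134% and again 0 of the 8 passed, adjusted or unadjusted. Their median log2 fold change with the block was -0.07, against 0.03 over all genes tested.

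CASP9 had the largest blocked estimate and was lower with GSK126 in both clones, 230 against 169 in clone 3 and 483 against 396 in clone 4. Its blocked log2 fold change was -0.37 ± 0.30 (SE), with an interval of -0.96 to 0.21. In edgeR with the block CASP9 was the 1 gene of the 8 with an unadjusted p under 0.05 (0.0408, adjusted p = 0.962). TNFRSF10B was also lower in both clones after median-of-ratios scaling, by 0.08 and 0.15 on the log2 scale in clones 3 and 4. As a share of total counts, however, TNFRSF10B was not lower in treated clone 4 (3609 of 29486021 counts untreated, 3128 of 25479238 treated).

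Within single clones some differences exceeded counting error. FAS hardly differed in clone 3 (4496 untreated, 4502 treated) and lower in treated clone 4 (2547 and 2010.1). XIAP was higher in treated clone 3 (2527 and 2972) and lower in treated clone 4 (2599 and 2416). CFLAR was higher in treated clone 3 by 0.21 on the log2 scale (95% counting interval 0.16 to 0.25) and differed by 0.01 (-0.04 to 0.07) in clone 4. Each of these sets 1 library against 1, with no replicate check, and the counting intervals leave out the uncertainty of the scaling. As a share of total counts, XIAP was not lower in treated clone 4.

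**Figure D4:**
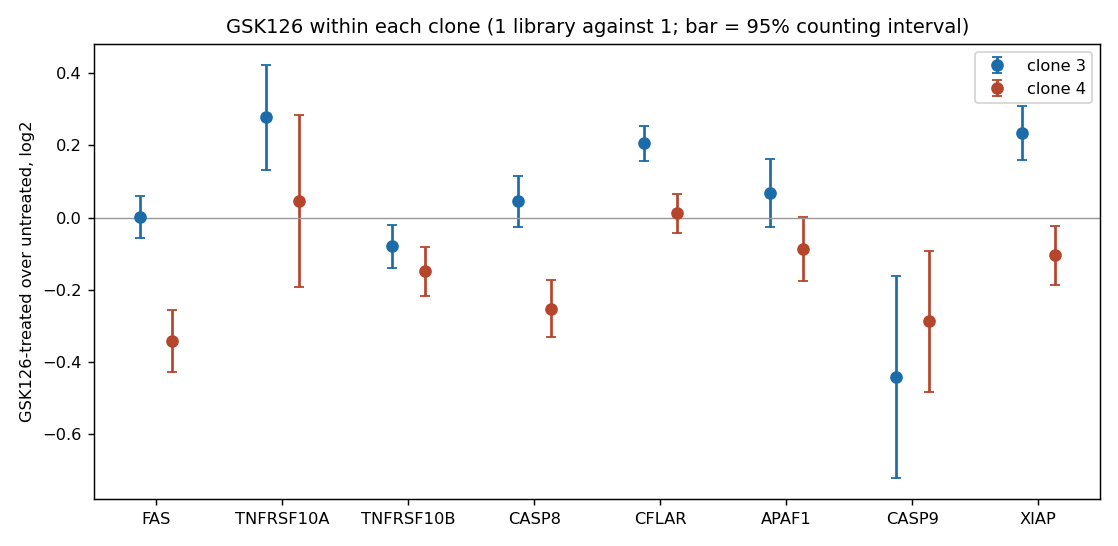
GSK126-treated over untreated log2 ratio (y axis) of each gene (x axis) in clone 3 and clone 4. Each point compares 1 library with 1 after median-of-ratios scaling. Bars are 95% counting intervals, which leave out the uncertainty of the scaling: CASP9 and TNFRSF10B are below 0 in both clones, and XIAP is above 0 in clone 3 and below it in clone 4.

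Levels between different genes can be set side by side only per length, and the order depended on the length used. Per kb of the median annotated transcript, TNFRSF10B stood highest in the parental library and CFLAR stood 4 of 8. Per kb of all merged exons, TNFRSF10B was again highest but CFLAR stood 8 of 8. In the EIR mean CFLAR was highest on the first scale and 4 of 8 on the second, and CASP9 was the lowest of the 8 on both. TNFRSF10A was 6 or 7 of 8 in all cases. No other order was read from these levels.

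The genes lie on 6 chromosomes, here in GRCh37 coordinates. CFLAR (chr2:201980877-202041410) and CASP8 (chr2:202098166-202226559) are neighbors, as are TNFRSF10B (chr8:22877646-22926544) and TNFRSF10A (chr8:23047965-23082615). The others are CASP9 (chr1:15817327-15853029), FAS (chr10:90750414-90775542), APAF1 (chr12:99039068-99129211) and XIAP (chrX:122993562-123047822). Expressed genes within 5 Mb of CFLAR had a median log2 fold change of 0.29 in EIR against parental (51 genes) and those around CASP8 of 0.33 (51 genes), the same sign as both genes. The CFLAR and CASP8 windows overlap almost wholly and each includes the other gene, so their medians are not separate observations. Around APAF1 (35 genes) the median was 0.18, opposite to the gene, and around CASP9 it was -0.16 (61 genes), nearer to 0 than the gene. Between the clones the median around TNFRSF10A was -0.06 (43 genes) and that around FAS was 0.18 (38 genes), where both genes were lower in clone 4.

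Of the genes, 2 overlap an expressed gene on the other strand. FAS overlaps ACTA2 (348 to 974 counts per library) and TNFRSF10B overlaps RHOBTB2 (451 to 984 counts). Whether the counting used strand was not stated, so a share of those reads cannot be told apart. The overlapping partners of the other genes that were in the table had at most 71 counts.

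For each of the 8, the gene with the most similar profile over the 5 libraries was found among 11563 genes whose mean reached 100 normalized read counts, by the root mean square difference of centred log2 values. CASP8 was nearest to TMEM87A (0.02), CFLAR to LAMB3 (0.02), TNFRSF10B to TP73-AS1 (0.02), APAF1 to BLVRB (0.03) and XIAP to CCDC126 (0.03). With 5 libraries such closeness was common: 529 genes lay within 0.1 of CASP8 and 530 within 0.1 of XIAP. The genes that differed between the clones had fewer genes within 0.1, but they also varied more. The SD of log2 values was 0.52 for FAS, 0.72 for TNFRSF10A and 0.92 for CASP9, against 0.20 for CASP8 and 0.12 for XIAP. A fixed cutoff leaves fewer close genes where the spread is larger, so these numbers do not show that the profiles were rare. TNFRSF10A was nearest to SERPINB1 (0.07, with 2 genes within 0.1), FAS to RFX5 (0.06, with 6) and CASP9 to PLBD1 (0.14, with none).

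The other genes of the same pathway were taken from a list of 55, of which 53 were matched in the table. In EIR cells against parental 45 had an adjusted p, and 4 passed higher, 7 lower and 34 did not pass. The share of 24.4% was again close to the 25.5% of all genes, and the median log2 fold change was -0.19. In edgeR 3 of 53 passed.

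The change with the smallest adjusted p in the list was in cytochrome c itself, the protein that APAF1 senses. CYCS measured 5859 normalized read counts in the parental library, 15873 in untreated and 19736 in treated clone 3, and 18123 in untreated and 15655 in treated clone 4. Every EIR library was far above parental, and CYCS rose by a log2 fold change of 1.57 ± 0.21 (SE; adjusted p in DESeq2 = 7.42e-12, edgeR 0.0141). CYCS has many processed pseudogenes, which can share its reads, so its level is uncertain.

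Among IAP antagonists and mitochondrial death proteins 4 of 7 tested passed. HTRA2, a mitochondrial protease that binds IAPs, fell by 0.92 on the log2 scale (DESeq2 adjusted p = 7.19e-04, edgeR 0.0404), from 852 in the parental library to between 400 and 508 in EIR libraries. AIFM1, the apoptosis-inducing factor, fell by 0.51 on the log2 scale (DESeq2 adjusted p = 0.0475, edgeR 0.133, and 0.160 in DESeq2 after a GC correction). The fourth had a mean under 100 and was lower. DIABLO, the IAP antagonist SMAC, did not pass (-0.32).

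Of 12 tested adaptors and regulators of the death-inducing complex, 1 passed higher and 2 lower. CASP8AP2, which binds CASP8, rose by 0.96 on the log2 scale (DESeq2 adjusted p = 0.0036). DEDD2, a protein with a death effector domain, fell by 0.99 on that scale (0.0012), as did PIDD1 (0.99, 0.0137), the scaffold for CASP2. None of the 3 passed in edgeR (0.0634, 0.0676 and 0.129), nor in DESeq2 after a GC correction (0.216, 0.187 and 0.381). FADD had a log2 fold change of 0.03 and did not pass.

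Of 5 tested IAP relatives of XIAP, BIRC6 rose by 0.62 on the log2 scale (DESeq2 adjusted p = 0.0059, edgeR 0.129, and 0.202 in DESeq2 after a GC correction) and 4 did not pass. Of 7 tested receptors and decoys, TNFRSF11B (osteoprotegerin, a soluble decoy that binds TRAIL) fell by 1.27 on the log2 scale (DESeq2 adjusted p = 0.0342, edgeR 0.125), from 20946 in the parental library to between 5215 and 13242 in EIR libraries. Of 4 tested death ligands, 1 passed higher and 1 lower, both with means under 100. None of the 5 other initiator and executioner caspases, of the 1 tested inflammatory caspase or of the 4 substrates passed.

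Between the clones 8 of 45 tested pathway genes (17.8%) passed, all lower in clone 4, against the 9.81% of all genes. TNF, the ligand of TNF receptors, fell by 3.23 on the log2 scale (DESeq2 adjusted p = 3.43e-30), from 987 and 763 in clone 3 to 106 and 81.5 in clone 4. BIRC3 (cIAP2) fell by 2.44 on the log2 scale (7.34e-37) and BIRC2 (cIAP1) by 0.88 (1.99e-05). Both are ubiquitin ligases that work with TRAF2 at TNF receptors, and TRAF2 fell by 0.90 (0.0060).

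CASP4, an inflammatory caspase, fell by 1.61 on the log2 scale from clone 3 to clone 4 (DESeq2 adjusted p = 4.84e-05). TNFSF15, a ligand of the TNF family, fell by 1.82 (0.0016) and TNFRSF11B by 0.89 (1.23e-06). All of these named genes also passed in edgeR, where 9 of 53 pathway genes (17.0%) passed. BIRC3 was above parental in clone 3 and below it in clone 4, as FAS was. BIRC2 measured 3377 normalized read counts in the parental library, with means of 7659 in clone 3 and 4155 in clone 4. All 4 EIR libraries were above parental for BIRC2, so its lower level in clone 4 was not a loss relative to parental. BIRC3 (chr11:102188215-102210134), BIRC2 (chr11:102217942-102249401) and CASP4 (chr11:104813593-104840093) lie close together in GRCh37. Whether they changed as a region was not tested. With GSK126, 0 of 52 tested pathway genes passed in DESeq2, with or without the block, and with the block 1 had an unadjusted p under 0.05.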

How the data were processed

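The authors aligned stranded total RNA reads to hg19 with Bowtie2 and deposited RSEM estimated counts per Ensembl gene for 5 libraries. The values were whole numbers. The annotation release and the use of strand in counting were not given in the sources used here. Identifiers were matched to GENCODE v44 on GRCh37, and 95.8% of 30476 identifiers had a symbol. The members and gene lists were chosen with earlier results of these data known.

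The deposited counts were scaled by median-of-ratios and compared by the Wald test, two-sided, of DESeq2 1.42.0 (R 4.3.3), the tool of the study. A gene passed with a p under 0.05 after Benjamini-Hochberg adjustment. In DESeq2 the adjustment ran over the genes kept by its independent filtering, and in edgeR over all 30476 genes. The parental arm held 1 library, so the spread came from the EIR libraries. Treatment was a covariate between clones. Alternatives were edgeR 4.0.16, other scalings, a filter of 10 counts in 2 libraries, a GC correction over 20 bins, summed clones, the replicate block and leaving out each library. The steps were tested on simulated data. Every simulated library was drawn independently, so this does not show how the tests behave when 2 libraries share a clone. The clone number pairs the libraries, because both come from 1 line, and deviations from the group means correlated at 0.862 across genes within a clone. Named were the 8 genes, pathway genes that passed with a mean of at least 100 normalized read counts (at most 16 per comparison), and the nearest profile of each of the 8 (pseudocount 0.5). Other genes were named after their values were seen. Between 25479238 and 30764963 counts per library set the counting error. ChIP-seq data were not used here, and some listed genes are not reported here.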

Additional observations from a re-analysis of the deposited data

Results flagged for a closer look

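FAS stood on opposite sides of the parental library in the clones, higher in both clone 3 libraries and lower in both clone 4 libraries. The difference was tested, with a log2 fold change of -0.998 (DESeq2 adjusted p = 1.09e-06) from clone 3 to clone 4.

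XIAP moved in opposite directions with GSK126 in the clones after median-of-ratios scaling. The log2 ratio was 0.23 in clone 3 (95% counting interval 0.16 to 0.31) and -0.11 in clone 4 (-0.19 to -0.02). Under this scaling the effects differed by -0.34 (clone 4 minus clone 3). This difference was not tested, since each clone had 1 library per condition. The sign in clone 4 depended on the scaling, which the intervals leave out. XIAP had 2555 of 29486021 counts in untreated and 2284 of 25479238 in treated clone 4. As a share of total counts it was thus not lower with GSK126.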

How the results depend on the processing

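In EIR against parental, 2 of the 8 genes passed. The number was 0 with edgeR, 1 with summed clones (CFLAR), 1 with total count scaling, 2 with the GC correction, 3 with TMM scaling, 3 with the low count filter, and 1 to 3 when each EIR library was left out in turn. CFLAR passed in 9 of 10 alternatives and APAF1 in 5. Pathway genes passing fell from 11 to 6 with the GC correction, 3 with edgeR, 3 with summed clones and 7 to 10 when a library was left out. All genes passing fell from 4157 to 1746 with edgeR and 1914 with summed clones. FAS changed sign without treated clone 4 (0.0492). With GSK126, all genes passing numbered 1, against 0 with edgeR (232 at an unadjusted p under 0.05), 4 with the replicate block, 8 with the replicate block and GC correction, and 1 to 25 when a library was left out, while none of the 8 passed in any setting. APAF1 reversed to 0.0570 with total count scaling and 0.0402 with the replicate block and GC correction. With 1 library left out, the signs of CASP8 (-0.33 to 0.0818), CASP9 (-1.08 to 0.28), FAS (-0.84 to 0.36), TNFRSF10A (-0.69 to 0.92), TNFRSF10B (-0.31 to 0.0334), CFLAR (-0.0748 to 0.25), XIAP (-0.11 to 0.21) and APAF1 (-0.21 to 0.18) depended on the library. These GSK126 fits held no clone term, so an arm with 1 clone was set against an arm with both. Differences between the clones therefore enter these signs, which do not describe GSK126 alone. The replicate block changed no other call. Between the clones, the count of the 8 ranged from 2 to 5 with a library left out, of pathway genes from 4 (without untreated clone 3) to 11, and of all genes from 831 to 2800, where treatment could not be a covariate. Other causes were not tested. With 1 parental library the spread of parental cells was not measured.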

Other observations

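RIPK3, the kinase of necroptosis, another form of cell death, was chosen after its values were seen. It measured 135 normalized read counts in the parental library and 69.4 and 54.4 in untreated and treated clone 3, and had 0 counts in both clone 4 libraries. Against a floor of 3 counts per library, clone 4 was at least 19.9-fold lower than clone 3. DESeq2 did not pass this difference (adjusted p = 0.226) and edgeR did (0.0024).

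TNFSF10 (TRAIL), the ligand of TNFRSF10A and TNFRSF10B, was likewise chosen after its values were seen. It measured 7.05 in the parental library, 111.1 in untreated and 96.9 in treated clone 3, and 18.3 in untreated and 24.3 in treated clone 4. It rose in EIR cells by a log2 fold change of 3.15 ± 1.22 (SE; adjusted p in DESeq2 = 0.0401, edgeR 0.231, and 0.0539 in DESeq2 after a GC correction) and was lower in clone 4 than in clone 3 by a log2 fold change of -2.30 (DESeq2 adjusted p = 0.0033, edgeR 0.0066), the clone in which TNFRSF10A was also lower. FASLG, the ligand of FAS, had at most 0.99 normalized read counts in any library.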
